A study of Mus musculus with 8 samples.

Results

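Foxp3+ and Foxp3- thymocytes were compared in mice labelled as lacking E2A and HEB, on 4 of the 8 Illumina bead arrays of the study. The arrays were chosen by their titles, 2 for KO Foxp3+ cells and 2 for KO Foxp3- cells, with no use of measured values. KO mice carried the genotype E2Af/fHEBf/f/ER-Cre/Foxp3KI, in which both E protein alleles are floxed and Cre is driven by tamoxifen. WT mice carried Foxp3KI without floxed alleles, and their 2 Foxp3+ and 2 Foxp3- arrays serve here for comparison. KO and WT mice alike took oral tamoxifen in corn oil, 3 mg each time, 4 times in 10 days. The Foxp3+ gate was CD4+Foxp3+ and the Foxp3- gate was CD4SPFoxp3-, so the gates as labelled differ in more than Foxp3. The age of the mice, the allele behind the name Foxp3KI and whether a sample pooled mice were not given in the sources used here. ER-Cre is not tied to T cells by its label, and deletion in other thymic cells was not checked. Nothing in the labels says that replicates came from separate mice, so p-values measure only the spread between these samples, which may be technical. The array labels share 1 chip number and each group sat at 2 neighbouring positions, so position and group cannot be told apart.

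Foxp3 is the transcription factor that defines regulatory T cells, which hold other T cells in check and in part arise in the thymus. E2A (gene Tcf3) and HEB (gene Tcf12) are E proteins, basic helix-loop-helix factors that bind DNA at the E-box CANNTG and act throughout T cell development. Id proteins such as Id2 and Id3 pair with E proteins and keep them off DNA. Foxp3+ thymocytes are marked by the interleukin 2 receptor chain Il2ra, the inhibitory receptor Ctla4, the Ikaros family factor Ikzf2 and TNF receptor family members such as Tnfrsf4, Tnfrsf9 and Tnfrsf18.

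The deleted gene could be followed for HEB only. Tcf12 read 6.44 and 6.22 in KO Foxp3+ cells and 6.86 and 6.74 in KO Foxp3- cells, against 7.29 and 7.48 in WT Foxp3+ cells and 7.66 and 7.57 in WT Foxp3- cells. All levels here are normalized, background-corrected log2 intensities, 1 value per array. Every KO array was below every WT array. The KO level was 48.1% of WT in Foxp3+ cells (log2 difference -1.06 ± 0.13, SE; adjusted p = 0.00363) and 56.9% of WT in Foxp3- cells (-0.81 ± 0.13; adjusted p = 0.00387). Whether the Tcf12 probe lies in the deleted part is not given in the sources used here. Tcf3, the gene of E2A, was not analysed here, because no probe used carries its name.

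Foxp3 set the sort, so its difference between the fractions checks the gates and is no finding. Foxp3 read 9.05 and 9.73 in KO Foxp3+ cells, against 4.29 and 4.29 in KO Foxp3- cells. This probe was not detected on either KO Foxp3- array and was at least 24.3-fold higher in KO Foxp3+ cells (adjusted p = 8.34e-06). Such bounds set the mean of the brighter group against, per array of the dimmer group, the higher of the lowest detected signal and the probe's own signal. These values are of probe ILMN_1225330. A second Foxp3 probe, ILMN_2635132, was detected on neither KO Foxp3+ array but on KO Foxp3- replicate 2, at an intensity of 121.8 and a detection p of 0.0414, and was below the filter. The T cell label was checked against the CD3 chains, part of the T cell receptor complex. Cd3e read 12.05 and 11.93 in KO Foxp3+ cells, against 12.11 and 12.19 in KO Foxp3- cells, and Cd3d and Cd3g were bright on all 4 arrays as well. Cd4 read 8.44 and 7.79 in KO Foxp3+ cells, against 8.19 and 8.17 in KO Foxp3- cells and was not called, but without KO Foxp3+ replicate 1 it was called lower, -0.39. Cd8b1, a CD8 chain that a CD4 single-positive gate should leave out, read 10.32 and 9.56 in KO Foxp3+ cells, against 9.66 and 9.76 in KO Foxp3- cells and was not called. Markers of other cells also lay above background in KO Foxp3+ cells.

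The sequences upstream of 4 genes are shown because E proteins bind E-boxes and these genes differed between the KO fractions. Foxp3, Il2ra and Ctla4 were higher in KO Foxp3+ cells, and Id2, an inhibitor of E proteins, was higher in KO Foxp3- cells. Each is the 250 bases before the RefSeq gene start on GRCm38.p6, 5′ to 3′ on the strand of the gene, with CANNTG, which reads the same on both strands, in capitals.
Foxp3, chrX:7579426-7579675, plus strand: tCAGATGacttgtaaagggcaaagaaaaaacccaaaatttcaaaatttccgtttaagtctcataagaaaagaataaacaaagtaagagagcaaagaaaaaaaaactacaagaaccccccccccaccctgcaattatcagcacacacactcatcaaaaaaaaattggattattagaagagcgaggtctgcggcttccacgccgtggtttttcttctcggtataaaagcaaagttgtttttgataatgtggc
Il2ra, chr2:11642542-11642791, plus strand: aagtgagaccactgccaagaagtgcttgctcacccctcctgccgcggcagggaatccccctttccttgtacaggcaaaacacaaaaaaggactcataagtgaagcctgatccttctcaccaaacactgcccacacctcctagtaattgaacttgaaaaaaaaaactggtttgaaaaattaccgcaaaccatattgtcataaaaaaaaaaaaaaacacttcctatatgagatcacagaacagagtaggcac
Ctla4, chr1:60908775-60909024, plus strand: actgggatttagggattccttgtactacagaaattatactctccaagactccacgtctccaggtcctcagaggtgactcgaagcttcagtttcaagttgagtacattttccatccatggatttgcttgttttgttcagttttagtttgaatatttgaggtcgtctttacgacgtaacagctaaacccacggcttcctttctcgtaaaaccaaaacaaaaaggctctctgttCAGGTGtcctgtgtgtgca
Id2, chr12:25096093-25096342, minus strand: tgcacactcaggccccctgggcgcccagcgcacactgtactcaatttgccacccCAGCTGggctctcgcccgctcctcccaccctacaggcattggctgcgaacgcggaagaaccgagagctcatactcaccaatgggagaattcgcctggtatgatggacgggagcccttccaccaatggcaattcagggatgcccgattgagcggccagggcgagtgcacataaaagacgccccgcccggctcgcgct
The Foxp3 window holds 1 match, CAGATG, the Ctla4 window 1, CAGGTG, and the Id2 window 1, CAGCTG. The Il2ra window holds 0. CANNTG lies in 66.0% of all 27025 RefSeq windows of that length, so a match is a description and no binding site is shown.

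Each of the 4 KO arrays detected 11462 to 12414 of 25697 probes, at a mean intensity of 358.93 to 403.75, and their number limits the precision. Of 13526 probes tested, 3261 (24.1%) were called at an adjusted p under 0.05 with limma, 1642 higher (12.1%) and 1619 lower (12%) in KO Foxp3+ cells. At 2-fold or more, 793 probes were called (5.86%), 522 higher (3.86%) and 271 lower (2%). With 1 probe per gene, 2255 of 9137 genes were called (24.7%), 1135 higher (12.4%) and 1120 lower (12.3%). The shares of 12.4% and 12.3% are the background for every gene list and family counted below. At 2-fold or more, increases outnumbered decreases. The split of all calls moved with the scaling: the share higher was 50.4%, against 38.4% under median scaling, which placed the median of all probes at -0.12, and 57.5% under cyclic loess. Leaving out KO Foxp3- replicate 1 or 2 left 1607 or 1963 calls, and there were 1959 when only the 4 KO arrays were fitted. For each of the 3261 called probes the 2 groups did not overlap, as was so for 61.1% of all probes tested.

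**Figure D1:**
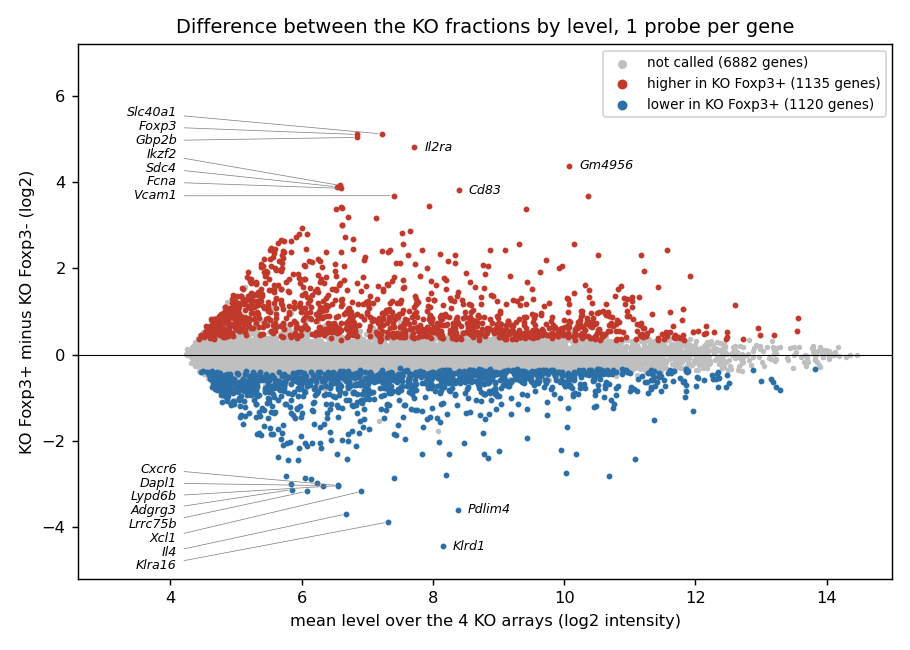
KO Foxp3+ minus KO Foxp3- (log2, vertical) against the mean level over the 4 KO arrays (log2 intensity, horizontal), with 1 point per gene. Red points are the 1135 genes called higher and blue points the 1120 called lower in KO Foxp3+ cells, grey points the 6882 genes not called, and the 10 highest and 10 lowest called genes are named; the differences of Slc40a1, Foxp3, Gbp2b, Ikzf2, Fcna, Lrrc75b and Adgrg3 rest on a group in which they were not detected.

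Regulatory T cell genes were higher in KO Foxp3+ cells nearly throughout. Of 24 genes on the list, 20 were measured and passed the filter on low values; 19 rose, 0 fell and Icos was not called. The median difference was 2.25, against -0.03 over all 9137 genes. The 19 calls held in every alternative tried, also when any single KO array was left out. The list was drawn up from textbook markers with earlier results of these data known, and Foxp3 itself, the sort gene, is among the 19.

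Il2ra, the high-affinity interleukin 2 receptor chain, read 10.20 and 10.04 in KO Foxp3+ cells, against 5.19 and 5.44 in KO Foxp3- cells. The difference was 4.80 ± 0.20 (log2, SE, adjusted p = 8.34e-06). Ctla4 read 12.07 and 12.33 in KO Foxp3+ cells, against 8.40 and 8.67 in KO Foxp3- cells, a difference of 3.67 ± 0.14 (log2, SE, adjusted p = 8.02e-06). Both fractions sat in tight pairs with a wide gap between them. Ikzf2, which encodes Helios, read 8.93 and 8.16 in KO Foxp3+ cells, against 4.57 and 4.68 in KO Foxp3- cells, where it was not detected, and was at least 13.5-fold higher (adjusted p = 2.44e-05). The related Ikzf4, which encodes Eos, read 9.61 and 9.19 in KO Foxp3+ cells, against 7.18 and 7.39 in KO Foxp3- cells (log2 2.11 ± 0.17, SE, adjusted p = 0.000114). Klrg1, an inhibitory lectin-like receptor of effector regulatory T cells, read 8.29 and 8.32 in KO Foxp3+ cells, against 4.84 and 4.93 in KO Foxp3- cells (log2 3.42 ± 0.16, SE, adjusted p = 1.26e-05). All 3 were dim or at moderate level in KO Foxp3- cells.

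Many measured receptors of the TNF receptor family were higher in KO Foxp3+ cells. Tnfrsf9, Tnfrsf4 and Tnfrsf18 are also on the regulatory T cell list, so the counts of the lists overlap. Tnfrsf9 (4-1BB) read 8.68 and 8.32 in KO Foxp3+ cells, against 6.23 and 6.04 in KO Foxp3- cells (log2 2.37 ± 0.14, SE, adjusted p = 2.6e-05). Tnfrsf4 (OX40) read 12.24 and 12.14 in KO Foxp3+ cells, against 10.26 and 10.24 in KO Foxp3- cells (log2 1.94 ± 0.16, SE, adjusted p = 0.000128). Tnfrsf18 (GITR) read 11.49 and 11.62 in KO Foxp3+ cells, against 10.23 and 10.28 in KO Foxp3- cells (log2 1.30 ± 0.12, SE, adjusted p = 0.000232). Tnfrsf4 and Tnfrsf18 were already bright in KO Foxp3- cells, whereas Tnfrsf9 was moderate there. Of 10 measured members of the receptor list, 8 rose and 0 fell; the count of rises lay between 5 and 9 over the alternatives. Cd40 was not called, 1.03 ± 0.32 (log2, SE, adjusted p = 0.0502), but was called higher in 7 of 17 alternatives. Tnfrsf1a, the death-domain TNF receptor, was not called, -0.34 ± 0.15 (log2, SE, adjusted p = 0.134). The median was 0.81 over the list, and 12.4% of all genes were called higher.

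Further genes of the list covered suppression and adhesion. The cytokine Il10 read 6.95 and 7.46 in KO Foxp3+ cells, against 4.95 and 5.11 in KO Foxp3- cells (log2 2.18 ± 0.17, SE, adjusted p = 0.000102). Ebi3, a subunit of several interleukins, read 7.87 and 7.70 in KO Foxp3+ cells, against 5.27 and 5.54 in KO Foxp3- cells (log2 2.38 ± 0.13, SE, adjusted p = 1.79e-05). Nt5e, the ectoenzyme CD73, which makes adenosine, read 11.56 and 11.59 in KO Foxp3+ cells, against 10.03 and 10.07 in KO Foxp3- cells (log2 1.53 ± 0.12, SE, adjusted p = 0.000118). Nrp1, a marker of thymus-derived regulatory T cells in mice, had a difference of 2.31 ± 0.13 (log2, SE, adjusted p = 2.43e-05), and the orphan receptor Gpr83 one of 2.43 ± 0.11 (log2, SE, adjusted p = 1.13e-05). Socs2, a suppressor of cytokine signalling, differed by 2.57 ± 0.13 (log2, SE, adjusted p = 1.41e-05), and Izumo1r, a folate receptor family member, by 2.07 ± 0.11 (log2, SE, adjusted p = 1.85e-05). Capg, an actin-capping protein, differed by 1.62 ± 0.12 (log2, SE, adjusted p = 7.49e-05), and Il2rb, a signalling chain of the interleukin 2 receptor, by 1.16 ± 0.11 (log2, SE, adjusted p = 0.00034). Each of these was higher on both KO Foxp3+ arrays than on either KO Foxp3- array.

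Itgae, the integrin CD103, showed the widest gap between KO Foxp3+ replicates on the list: it read 12.13 and 11.29 in KO Foxp3+ cells, against 10.32 and 10.41 in KO Foxp3- cells (log2 1.34 ± 0.23, SE, adjusted p = 0.00506). Of its 5 other probes tested, 4 were called in the same direction and ILMN_2656090 was not called (adjusted p = 0.0514). Icos, a costimulatory receptor, read 10.81 and 10.38 in KO Foxp3+ cells, against 10.83 and 10.71 in KO Foxp3- cells (log2 -0.17 ± 0.15, SE, adjusted p = 0.452), with the groups overlapping. A second Icos probe, ILMN_1221516, was called in the opposite direction, 0.45 (log2; adjusted p = 0.0161), so the probes of Icos disagree.

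**Figure D2:**
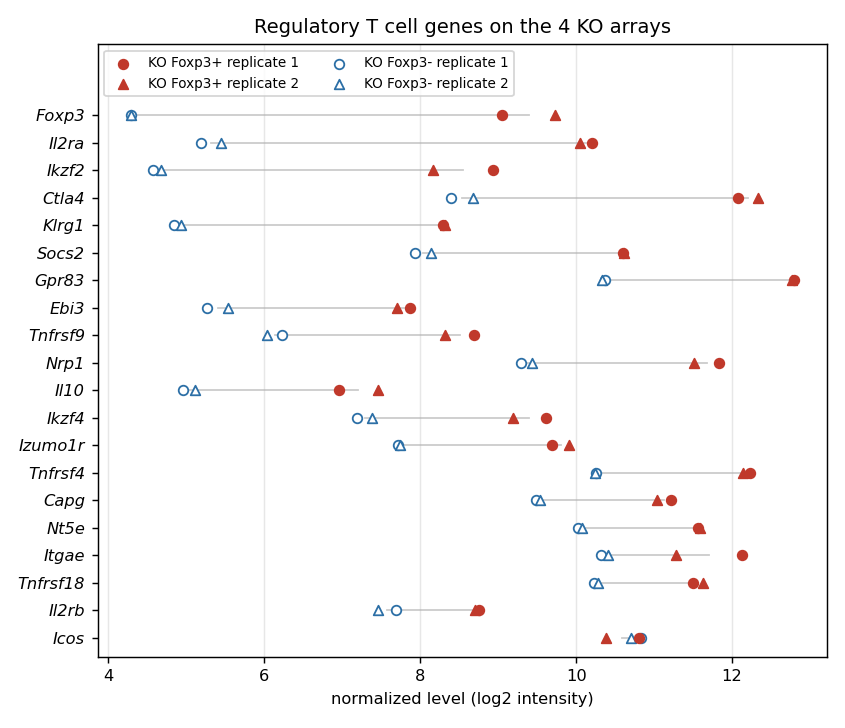
Normalized level (log2 intensity, horizontal) of the 20 measured regulatory T cell genes on each of the 4 KO arrays. Filled red symbols are KO Foxp3+ and open blue symbols KO Foxp3- arrays, circles replicate 1 and triangles replicate 2, and grey lines join the group means; for all genes but Icos both red symbols lie to the right of both blue ones.

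Receptors for cytokines rose in part, and Il2ra and Il2rb among them are also on the regulatory T cell list. Of 11 measured, 7 rose and Tgfbr2 fell, against 12.4% and 12.3% over all genes, with a median of 0.71. Il1r2, the decoy receptor for interleukin 1, read 7.56 and 6.74 in KO Foxp3+ cells, against 4.41 and 4.63 in KO Foxp3- cells, where it was not detected, and was at least 5.14-fold higher (adjusted p = 0.000212). Tgfbr1, the type I receptor for TGF-beta, read 11.29 and 11.05 in KO Foxp3+ cells, against 10.09 and 10.25 in KO Foxp3- cells (log2 1.0 ± 0.15, SE, adjusted p = 0.00264). Of its 2 other probes, 1 was called in the same direction and 1 was not detected on the KO arrays. Tgfbr2, the type II receptor, went the other way and read 11.84 and 12.11 in KO Foxp3+ cells, against 12.70 and 12.74 in KO Foxp3- cells (log2 -0.75 ± 0.12, SE, adjusted p = 0.00364). Il7r, the interleukin 7 receptor, was bright in both fractions and not called, -0.37 ± 0.12 (log2, SE, adjusted p = 0.0532), though another of its probes, ILMN_2975500, was called lower, -0.76, and the given probe was called lower in 6 of 17 alternatives. NF-kB genes had 4 rises and 0 falls among 10 measured, against 12.4% and 12.3% over all genes, with a median of 0.37. Over the alternatives 2 to 6 rose. Nfkbia, the inhibitor induced by NF-kB, read 11.27 and 11.59 in KO Foxp3+ cells, against 10.50 and 10.56 in KO Foxp3- cells (log2 0.90 ± 0.13, SE, adjusted p = 0.00223), and Traf1 differed by 0.79 ± 0.10 (log2, SE, adjusted p = 0.00129). Tnfaip3 (A20) read 11.44 and 12.18 in KO Foxp3+ cells, against 10.85 and 10.90 in KO Foxp3- cells (log2 0.94 ± 0.21, SE, adjusted p = 0.0149). It was 0.57 without KO Foxp3+ replicate 2, and its call was lost without either KO Foxp3- array and in the fit of the 4 KO arrays (adjusted p up to 0.079). Rel, a subunit of NF-kB that acts in regulatory T cell development, differed by 0.46 ± 0.11 (log2, SE, adjusted p = 0.022) and lost its call in 6 alternatives, among them the fits without KO Foxp3+ replicate 2 and without either KO Foxp3- array (adjusted p up to 0.0935).

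Of 10 measured genes that respond to T cell receptor signals, 1 rose and 0 fell, against 12.4% and 12.3% over all genes, with a median of 0.01. Nr4a2, an orphan nuclear receptor, read 5.85 and 5.51 in KO Foxp3+ cells, against 4.69 and 5.03 in KO Foxp3- cells (log2 0.82 ± 0.21, SE, adjusted p = 0.0257). The call was lost in 4 alternatives, among them the fits that left out replicate 1 of KO Foxp3+ or of KO Foxp3- cells (adjusted p up to 0.148). The early growth response factors Egr1 (log2 0.17 ± 0.11, SE, adjusted p = 0.302) and Egr2 (log2 -0.29 ± 0.11, SE, adjusted p = 0.101), called lower in 3 alternatives, and Nr4a3 (log2 0.24 ± 0.17, SE, adjusted p = 0.331) were not called. Of 10 measured cell cycle genes 1 was higher and 1 lower, close to the 12.4% higher and 12.3% lower over all genes. Mcm2, part of the replicative helicase, read 8.02 and 8.0 in KO Foxp3+ cells, against 8.46 and 8.42 in KO Foxp3- cells (log2 -0.43 ± 0.10, SE, adjusted p = 0.02), a call lost in 4 alternatives, among them the fits without either KO Foxp3- array (adjusted p up to 0.103). The brighter probe of Rrm2, a ribonucleotide reductase subunit, gave 0.60 ± 0.18 (log2, SE, adjusted p = 0.0416), a call lost in 8 alternatives, each of the 4 fits without a KO array among them. The second Rrm2 probe, ILMN_2714565, was detected on 1 KO Foxp3- array and on 0 KO Foxp3+ arrays and was not called, -0.07. Plk1 (log2 0.35 ± 0.14, SE, adjusted p = 0.103) and Pcna (log2 -0.24 ± 0.13, SE, adjusted p = 0.212) were not called.

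The genes with the largest increases were not all regulatory T cell genes. Slc40a1, the iron exporter ferroportin, read 9.48 and 10.07 in KO Foxp3+ cells, against 4.68 and 4.65 in KO Foxp3- cells, where it was not detected, and was at least 31.8-fold higher (adjusted p = 8.02e-06). Gbp2b, an interferon-inducible GTPase, read 9.25 and 9.48 in KO Foxp3+ cells, against 4.31 and 4.35 in KO Foxp3- cells, where it was not detected, and was at least 23.8-fold higher (adjusted p = 2.32e-06). Gm4956, a predicted gene, read 12.12 and 12.41 in KO Foxp3+ cells, against 7.84 and 7.94 in KO Foxp3- cells (log2 4.38 ± 0.12, SE, adjusted p = 2.7e-06). These 3 had KO Foxp3+ arrays far above KO Foxp3- arrays. Cd83, a surface protein of activated dendritic, B and T cells, read 10.34 and 10.25 in KO Foxp3+ cells, against 6.48 and 6.49 in KO Foxp3- cells (log2 3.81 ± 0.11, SE, adjusted p = 2.81e-06). Sdc4, the heparan sulfate proteoglycan syndecan 4, read 8.60 and 8.36 in KO Foxp3+ cells, against 4.34 and 4.84 in KO Foxp3- cells (log2 3.89 ± 0.17, SE, adjusted p = 1.05e-05). Vcam1, an adhesion molecule of stroma and macrophages, read 9.01 and 9.47 in KO Foxp3+ cells, against 5.65 and 5.47 in KO Foxp3- cells (log2 3.68 ± 0.19, SE, adjusted p = 1.79e-05). Fcna, the lectin ficolin A of macrophages, read 8.29 and 8.78 in KO Foxp3+ cells, against 4.64 and 4.72 in KO Foxp3- cells, where it was not detected, and was at least 13.4-fold higher (adjusted p = 1.13e-05).

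Guanylate-binding proteins, a family chosen after its values were seen, had 6 of 7 genes higher and Gbp11 lower, with 3 to 6 higher over the alternatives. The call of Gbp11 was lost in 7 alternatives, among them the fits without either KO Foxp3+ array and without KO Foxp3- replicate 2. Gbp3 read 11.37 and 11.50 in KO Foxp3+ cells, against 8.82 and 8.93 in KO Foxp3- cells (log2 2.56 ± 0.13, SE, adjusted p = 1.76e-05), and Gbp5 read 7.06 and 6.54 in KO Foxp3+ cells, against 5.03 and 5.43 in KO Foxp3- cells (log2 1.57 ± 0.22, SE, adjusted p = 0.00195). Both were higher on each KO Foxp3+ array. Other interferon-induced genes went down in the same cells. Of 9 measured on the interferon list, 0 rose and 5 fell, against 12.4% and 12.3% over all genes, with a median of -0.44. Irf7, which amplifies type I interferon, read 7.38 and 7.26 in KO Foxp3+ cells, against 8.84 and 8.76 in KO Foxp3- cells (log2 -1.48 ± 0.17, SE, adjusted p = 0.00066). Ifit3 read 9.87 and 9.84 in KO Foxp3+ cells, against 11.01 and 11.12 in KO Foxp3- cells (log2 -1.21 ± 0.12, SE, adjusted p = 0.00034), and Isg15, a ubiquitin-like modifier, read 8.07 and 8.02 in KO Foxp3+ cells, against 8.93 and 8.93 in KO Foxp3- cells (log2 -0.89 ± 0.10, SE, adjusted p = 0.000558). The oligoadenylate synthetases, also chosen after their values were seen, had 5 of 8 genes lower and 0 higher. Oas2 read 6.23 and 5.72 in KO Foxp3+ cells, against 8.89 and 8.79 in KO Foxp3- cells (log2 -2.86 ± 0.16, SE, adjusted p = 2.43e-05), Oasl2 differed by -1.26 ± 0.15 (log2, SE, adjusted p = 0.000811), and Oas3 by -1.31 ± 0.30 (log2, SE, adjusted p = 0.0155), a call lost without either KO Foxp3- array. Members of the Oas and Gbp families are close paralogs, and cross-hybridization of their probes was not tested.

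Genes of other cell types also differed, and all levels here are of sorted bulk samples, in which fewer cells of a type and less RNA per cell cannot be told apart. Of 5 measured myeloid markers 4 rose and 0 fell, with a median of 2.57 and a summed intensity of 1884 and 1485 in KO Foxp3+ cells, against 224 and 225 in KO Foxp3- cells. S100a8, a neutrophil and monocyte calgranulin, read 9.92 and 9.41 in KO Foxp3+ cells, against 6.19 and 6.26 in KO Foxp3- cells (log2 3.44 ± 0.23, SE, adjusted p = 4.95e-05). Its partner S100a9 read 8.86 and 7.78 in KO Foxp3+ cells, against 4.86 and 4.98 in KO Foxp3- cells (log2 3.40 ± 0.29, SE, adjusted p = 0.000163). Lyz2, lysozyme of myeloid cells, read 8.64 and 9.01 in KO Foxp3+ cells, against 6.33 and 6.18 in KO Foxp3- cells (log2 2.57 ± 0.18, SE, adjusted p = 7.69e-05). Cd14 was not detected in KO Foxp3- cells and was at least 1.14-fold higher, with a call lost in 8 alternatives, among them the fits without KO Foxp3+ replicate 2 and without either KO Foxp3- array. Csf3r was not called, 0.32 ± 0.25 (log2, SE, adjusted p = 0.396). The part of these cells in the other differences was not tested.

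The 3 subunits of complement C1q, which macrophages secrete, all rose, at a summed intensity of 609 and 709 in KO Foxp3+ cells, against 88.2 and 103 in KO Foxp3- cells. C1qb read 8.12 and 8.47 in KO Foxp3+ cells, against 4.90 and 5.34 in KO Foxp3- cells (log2 3.18 ± 0.18, SE, adjusted p = 2.43e-05), and C1qc read 8.03 and 8.18 in KO Foxp3+ cells, against 5.04 and 5.17 in KO Foxp3- cells (log2 3.00 ± 0.12, SE, adjusted p = 8.34e-06). C1qa was not detected in KO Foxp3- cells and was at least 2.39-fold higher (adjusted p = 9.01e-05). The C1q level stood beside Slc40a1, Vcam1 and Fcna, all high in the same group. Antigen-presenting genes rose as well: 7 of 9 MHC class II genes were higher and 0 lower, with 4 to 8 higher over the alternatives. H2-Ab1 read 10.06 and 8.92 in KO Foxp3+ cells, against 7.11 and 7.25 in KO Foxp3- cells (log2 2.31 ± 0.31, SE, adjusted p = 0.00139), H2-Eb1 differed by 2.43 ± 0.24 (log2, SE, adjusted p = 0.000372) and H2-Aa by 2.00 ± 0.31 (log2, SE, adjusted p = 0.00293). The C1q, globin and MHC class II groups were chosen after their values were seen, and 12.4% of all genes were called higher.

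B cell and erythroid genes were also higher. Of 3 measured B cell markers 2 rose and 0 fell, at a summed intensity of 1063 and 497 in KO Foxp3+ cells, against 119 and 182 in KO Foxp3- cells. Cd79b, a B cell receptor chain, read 9.55 and 8.61 in KO Foxp3+ cells, against 5.80 and 6.65 in KO Foxp3- cells (log2 2.86 ± 0.33, SE, adjusted p = 0.000788). Cd79a, its partner, read 8.14 and 6.40 in KO Foxp3+ cells, against 5.28 and 5.66 in KO Foxp3- cells (log2 1.80 ± 0.46, SE, adjusted p = 0.0241). The difference became 0.93 with KO Foxp3+ replicate 1 left out and 2.67 with replicate 2 left out, and its call was lost without either KO Foxp3- array. Blnk, a B cell adaptor, was near background on all 4 arrays and not called. A second Blnk probe, ILMN_2726931, was detected on both KO Foxp3+ arrays and on neither KO Foxp3- array and was not called, 0.46. Both erythroid markers rose, as did all 3 globin genes measured. Hba-a1, alpha globin, read 12.57 and 13.07 in KO Foxp3+ cells, against 11.13 and 10.90 in KO Foxp3- cells (log2 1.81 ± 0.19, SE, adjusted p = 0.000474). Hbb-bt read 8.80 and 9.74 in KO Foxp3+ cells, against 6.96 and 6.91 in KO Foxp3- cells (log2 2.33 ± 0.28, SE, adjusted p = 0.000832), Hbb-b2 differed by 1.65 ± 0.30 (log2, SE, adjusted p = 0.00677), and Alas2, the haem synthesis enzyme of red cells, by 1.75 ± 0.24 (log2, SE, adjusted p = 0.00155). The call of Hbb-b2 was lost without KO Foxp3- replicate 1. Hba-a1 was bright in both KO fractions, while Hbb-bt was moderate in KO Foxp3- cells. Double-positive thymocyte markers had 0 of 6 genes called, at a summed intensity of 2755 and 1966 in KO Foxp3+ cells, against 1926 and 1968 in KO Foxp3- cells. No thymic stroma marker was measured.

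**Figure D3:**
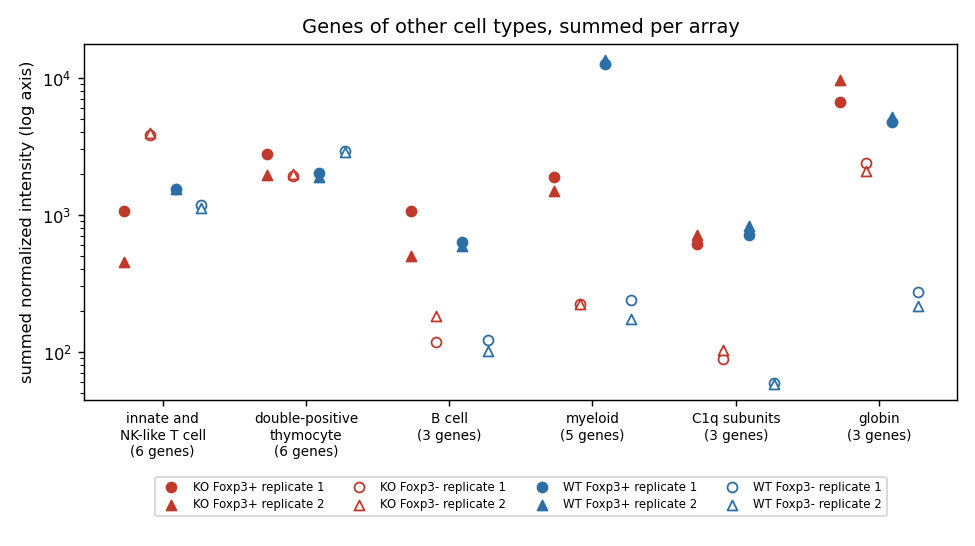
Summed normalized intensity (log axis, vertical) of marker genes of other cell types, 1 symbol per array. Red is KO and blue WT, filled Foxp3+ and open Foxp3-, circles replicate 1 and triangles replicate 2; myeloid markers sum to 1884 and 1485 in KO Foxp3+ cells, against 224 and 225 in KO Foxp3- cells, and innate and NK-like markers to 1068 and 452, against 3794 and 3955.

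Genes of innate-like and natural killer T cells were lower in KO Foxp3+ cells and high in KO Foxp3- cells. Of 6 measured, 0 rose and 5 fell, with a median of -2.05, and the count was the same in every alternative. Klrd1 (CD94), a lectin-like receptor of natural killer cells, read 7.12 and 4.74 in KO Foxp3+ cells, against 10.27 and 10.48 in KO Foxp3- cells (log2 -4.44 ± 0.61, SE, adjusted p = 0.00162). Nkg7, a cytotoxic granule protein, read 9.58 and 8.11 in KO Foxp3+ cells, against 11.06 and 11.04 in KO Foxp3- cells (log2 -2.21 ± 0.40, SE, adjusted p = 0.00626). For both genes KO Foxp3+ replicate 1 was the brighter of the 2 and still below both KO Foxp3- arrays. Klrd1 differed by -5.64 without KO Foxp3+ replicate 1 and by -3.25 without replicate 2. Klrk1 (NKG2D) read 4.85 and 4.50 in KO Foxp3+ cells, against 6.63 and 6.92 in KO Foxp3- cells (log2 -2.10 ± 0.16, SE, adjusted p = 9.85e-05), and 2 further probes of it were called in the same direction. Tbx21 (T-bet), the factor of type 1 responses, read 5.81 and 5.10 in KO Foxp3+ cells, against 7.60 and 7.28 in KO Foxp3- cells (log2 -1.99 ± 0.23, SE, adjusted p = 0.000792). Fcer1g, a signalling chain shared with myeloid cells, was not called, -0.21 ± 0.20 (log2, SE, adjusted p = 0.484).

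The wider Klr family, chosen after its values were seen, had 10 of 15 genes lower and Klrg1 as the only one higher. Over all genes 12.3% were lower and 12.4% higher. Klra16, a Ly49 receptor, read 6.48 and 4.27 in KO Foxp3+ cells, against 9.12 and 9.40 in KO Foxp3- cells (log2 -3.88 ± 0.57, SE, adjusted p = 0.00223), with -4.99 without KO Foxp3+ replicate 1 and -2.77 without replicate 2. Klra1, Klra7 and Klra10 were also called lower, but Klra genes are near-identical paralogs, and which of them a probe reads is uncertain. Sox13, the only measured gene on the list of gamma-delta T cell markers, was not detected in KO Foxp3+ cells. It was at least 1.27-fold lower there (adjusted p = 0.00206). Cd163l1, a gamma-delta T cell gene outside the list, was not called (log2 0.11, adjusted p = 0.961).

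Several cytokine and chemokine genes of effector T cells were lower in KO Foxp3+ cells. They were named as members of the 10 lowest genes or after their values were seen, and are no fixed list. Other cytokine genes, Il10 and Ebi3, rose in the same comparison. Il4, the type 2 cytokine, read 5.01 and 4.64 in KO Foxp3+ cells, against 8.56 and 8.49 in KO Foxp3- cells (log2 -3.70 ± 0.16, SE, adjusted p = 1e-05). Ifng, the type 1 cytokine, read 6.91 and 6.73 in KO Foxp3+ cells, against 8.21 and 8.33 in KO Foxp3- cells (log2 -1.45 ± 0.13, SE, adjusted p = 0.000192), and a second probe was called in the same direction. Xcl1 (lymphotactin) read 5.90 and 4.75 in KO Foxp3+ cells, against 8.48 and 8.52 in KO Foxp3- cells (log2 -3.17 ± 0.36, SE, adjusted p = 0.000668). Both Il4 and Ifng were lower on each KO Foxp3+ array than on either KO Foxp3- array. The chemokine Ccl5 read 9.74 and 8.32 in KO Foxp3+ cells, against 11.36 and 11.32 in KO Foxp3- cells (log2 -2.31 ± 0.37, SE, adjusted p = 0.0035), Ccl3 differed by -1.82 ± 0.16 (log2, SE, adjusted p = 0.000186) and Ccl4 by -1.83 ± 0.15 (log2, SE, adjusted p = 0.000121). Gzmk, a granzyme, read 4.35 and 4.33 in KO Foxp3+ cells, against 7.30 and 7.40 in KO Foxp3- cells, and was at least 6.34-fold lower in KO Foxp3+ cells, where it was not detected (adjusted p = 5.71e-06). Cxcr6, a chemokine receptor of effector and innate-like T cells, read 5.63 and 4.45 in KO Foxp3+ cells, against 7.88 and 8.27 in KO Foxp3- cells (log2 -3.04 ± 0.34, SE, adjusted p = 0.000595).

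Other large decreases were spread over genes of different kinds. Pdlim4, a PDZ and LIM domain protein, read 7.33 and 5.85 in KO Foxp3+ cells, against 10.23 and 10.13 in KO Foxp3- cells (log2 -3.60 ± 0.38, SE, adjusted p = 0.000503). Adgrg3, an adhesion G protein-coupled receptor, read 4.39 and 4.19 in KO Foxp3+ cells, against 7.49 and 7.35 in KO Foxp3- cells and was at least 6.68-fold lower in KO Foxp3+ cells, where it was not detected (adjusted p = 8.34e-06). Lrrc75b read 4.41 and 4.57 in KO Foxp3+ cells, against 7.64 and 7.69 in KO Foxp3- cells and was at least 7.91-fold lower, again undetected (adjusted p = 1.03e-05). All 3 were well above background in KO Foxp3- cells. Lypd6b differed by -3.04 ± 0.16 (log2, SE, adjusted p = 1.79e-05) and Dapl1 by -3.04 ± 0.16 (log2, SE, adjusted p = 1.95e-05).

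Among E proteins, Id proteins and the partner Lyl1, 1 of 6 measured genes rose and 3 fell, against 12.4% and 12.3% over all genes. The gene that rose was Lyl1, and the floxed Tcf12 was among those that fell. Id2 read 8.74 and 8.21 in KO Foxp3+ cells, against 10.40 and 10.40 in KO Foxp3- cells (log2 -1.93 ± 0.17, SE, adjusted p = 0.000206), and a second probe was called in the same direction. Id2 is a regulator that innate-like lymphocytes need. Id3, the inhibitor induced by T cell receptor signals, read 6.58 and 6.66 in KO Foxp3+ cells, against 7.57 and 7.39 in KO Foxp3- cells (log2 -0.86 ± 0.19, SE, adjusted p = 0.0149), and lost its call when replicate 1 of KO Foxp3+ or of KO Foxp3- cells was left out (adjusted p up to 0.0919). Tcf12 was lower in KO Foxp3+ cells, -0.47 ± 0.13 (log2, SE, adjusted p = 0.0293). This call was lost in 7 alternatives, among them the fits without KO Foxp3+ replicate 2 and without either KO Foxp3- array. In WT Tcf12 differed by -0.23 ± 0.13 and was not called (log2, SE, adjusted p = 0.201). The KO difference minus the WT difference, -0.24 ± 0.18, was not called either (log2, SE, adjusted p = 0.486). Lyl1, a helix-loop-helix partner of E proteins, was not detected in KO Foxp3- cells and was at least 1.89-fold higher (adjusted p = 0.00934), a call lost without KO Foxp3- replicate 2. Tcf4 (E2-2), the remaining E protein gene, read 8.82 and 7.86 in KO Foxp3+ cells, against 7.41 and 7.69 in KO Foxp3- cells and was not called (log2 0.79 ± 0.28, SE, adjusted p = 0.0746), though 4 alternatives called it higher.

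Lineage regulators fell more often than they rose. Of 11 measured, 5 fell and 1 rose, against 12.3% and 12.4% over all genes, with a median of -0.44. Over the alternatives 3 to 6 fell. Tbx21, among those that fell, is also on the innate list. Satb1, a chromatin organizer of thymocytes, read 12.96 and 12.80 in KO Foxp3+ cells, against 13.69 and 13.70 in KO Foxp3- cells (log2 -0.81 ± 0.11, SE, adjusted p = 0.0017). Lef1, the Wnt pathway factor, read 8.73 and 8.31 in KO Foxp3+ cells, against 9.63 and 9.36 in KO Foxp3- cells (log2 -0.97 ± 0.16, SE, adjusted p = 0.00388). Eomes, a relative of Tbx21, read 4.31 and 4.71 in KO Foxp3+ cells, against 5.48 and 5.66 in KO Foxp3- cells (log2 -1.06 ± 0.22, SE, adjusted p = 0.0117), and lost its call without KO Foxp3- replicate 2. Gata3, the type 2 and CD4 lineage factor, was not called (log2 0.22 ± 0.12, SE, adjusted p = 0.228). Zbtb7b (ThPOK), which sets the CD4 lineage, differed by -0.50 ± 0.13 (log2, SE, adjusted p = 0.0269), a call lost in 6 alternatives, among them the fits without KO Foxp3+ replicate 1 and without either KO Foxp3- array (adjusted p up to 0.129). Batf was the 1 gene that rose, 0.50 ± 0.15 (log2, SE, adjusted p = 0.0402), a call lost in 9 alternatives, among them the fits without KO Foxp3+ replicate 2 and without either KO Foxp3- array (adjusted p up to 0.177).

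Genes of migration went both ways, with 4 of 11 higher and 4 lower, against 12.4% and 12.3% over all genes. Over the alternatives 1 to 4 were lower. Itgae, among those higher, is also on the regulatory T cell list. Ccr6 read 11.35 and 10.26 in KO Foxp3+ cells, against 8.63 and 8.63 in KO Foxp3- cells (log2 2.18 ± 0.31, SE, adjusted p = 0.00201), and a second probe was called in the same direction. Cxcr5, the receptor that leads cells to B cell follicles, read 8.90 and 8.61 in KO Foxp3+ cells, against 7.96 and 7.91 in KO Foxp3- cells (log2 0.82 ± 0.15, SE, adjusted p = 0.00715). Of its 2 other probes 1 was called in the same direction and ILMN_1219316 was not called. Cxcr4, the retention receptor, differed by 0.71 ± 0.11 (log2, SE, adjusted p = 0.00315). Ccr8 read 7.90 and 8.15 in KO Foxp3+ cells, against 9.07 and 9.01 in KO Foxp3- cells (log2 -1.01 ± 0.13, SE, adjusted p = 0.00119), and Ccr7, the receptor of mature thymocytes, differed by -0.49 ± 0.14 (log2, SE, adjusted p = 0.0404), a call lost in 8 alternatives, among them the fits without either KO Foxp3+ array and without KO Foxp3- replicate 2 (adjusted p up to 0.208). Cxcr3, a type 1 chemokine receptor, read 8.92 and 8.64 in KO Foxp3+ cells, against 9.56 and 9.46 in KO Foxp3- cells (log2 -0.73 ± 0.19, SE, adjusted p = 0.0287), a call lost in 5 alternatives, among them the fits without KO Foxp3+ replicate 2 and without either KO Foxp3- array. Klf2, which drives thymic exit, was not called (log2 -0.09 ± 0.11, SE, adjusted p = 0.614).

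Detection gave a second reading of the same contrast on the same arrays, not an independent one. A probe was counted as detected at a detection p under 0.05. Of 25697 probes, 519 were detected on both KO Foxp3+ arrays and on neither KO Foxp3- array, and 191 the other way round. With 1 probe per gene these were 316 and 121 genes. Of the 316, 203 were called higher and 165 had the same pattern in WT. Of the 121, 91 were called lower and 28 had the same pattern in WT. Both sets were picked by detection on the same KO arrays, which largely set the direction of these calls. Stricter definitions left 288 or 404 of the 710 probes. The KO Foxp3- arrays detected fewer probes in all, 11462 and 11869, against 12414 and 12057 on the KO Foxp3+ arrays. The part of this in the counts of 519 and 191 was not tested.

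The 2 KO Foxp3+ arrays differed from each other by more than 2-fold on 157 probes, 130 higher in replicate 1 and 27 in replicate 2, against 17 such probes between the KO Foxp3- arrays. Of the 157, 52 were called between the fractions, beside 3261 of all 13526 probes tested (24.1%). Cd163l1, a scavenger receptor of gamma-delta T cells, read 9.57 and 4.60 in KO Foxp3+ cells, against 6.89 and 7.04 in KO Foxp3- cells. Arpp21, a double-positive thymocyte gene, read 8.18 and 4.31 in KO Foxp3+ cells, against 5.45 and 5.63 in KO Foxp3- cells. Rag1, the recombinase of immature thymocytes, read 6.54 and 4.49 in KO Foxp3+ cells, against 4.59 and 4.97 in KO Foxp3- cells. In all 3 genes replicate 1 was above and replicate 2 below the KO Foxp3- arrays, and none was called. Cd163l1 differed by -2.37 without KO Foxp3+ replicate 1 and by 2.6 without replicate 2, and each of these fits called it, in opposite directions. Without replicate 1, Arpp21 differed by -1.24, Rag1 by -0.29 and Cd8b1 by -0.15, against 0.70, 0.74 and 0.23 with it, and none of these was called. Without replicate 2, 3 of the 6 double-positive markers were called higher. Over the markers, replicate 1 exceeded replicate 2 by a median of 1.01 for double-positive, 0.95 for B cell, 0.58 for innate and 0.73 for MHC class II genes. Globin genes were lower by 0.94 and myeloid markers by 0.37 in replicate 1, and regulatory T cell genes differed by 0.07. The part of these differences in the comparison of fractions was not tested, beyond the values without each array. Array weights set the KO Foxp3+ arrays at 0.54, against 1.14 for the KO Foxp3- arrays, and 2425 probes were then called.

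**Figure D4:**
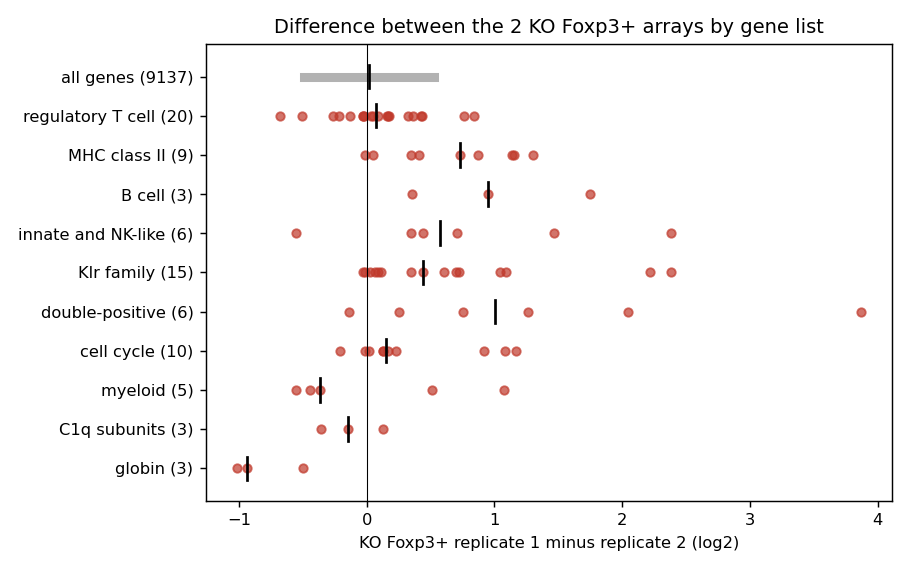
KO Foxp3+ replicate 1 minus replicate 2 (log2, horizontal) for the genes of each list, with the number measured in brackets. Points are genes, black ticks are medians and the grey bar spans the 5th to 95th percentile of all 9137 genes; double-positive and B cell genes lie to the right, with medians of 1.01 and 0.95, and globin genes to the left, with a median of -0.94.

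Whether a difference was particular to KO was tested as an interaction, the KO difference minus the WT difference, over all 8 arrays. The KO and WT differences share no array and correlated across 9137 genes at r = 0.74 (rho = 0.616), with normalization in common; genes are not independent replicates. Of the 1135 genes higher in KO, 807 (71.1%) were also called higher in WT, which is 53.5% of those higher in WT. Of the 1120 lower in KO, 662 (59.1%) were also called lower in WT, 44.3% of those lower in WT. Opposite calls were made for 30 genes lower in KO and higher in WT and for 11 the other way. In WT the fractions differed on 4229 of 13526 probes (31.3%). The interaction called 715 of 13526 probes (5.29%), 235 positive (1.74%) and 480 negative (3.55%). Over genes it called 492 (5.38%), 132 positive (1.44%) and 360 negative (3.94%). The count of probes stood at 1098 or 937 when KO Foxp3+ replicate 1 or 2 was left out. It was 301 and 363 without KO Foxp3- replicate 1 or 2, 369 and 305 without WT Foxp3+ replicate 1 or 2, and 281 and 326 without WT Foxp3- replicate 1 or 2.

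Of the 20 regulatory T cell genes, 8 had a negative and 1 a positive interaction. Socs2 read 10.59 and 10.62 in KO Foxp3+ cells, against 7.93 and 8.13 in KO Foxp3- cells, while it read 10.69 and 10.64 in WT Foxp3+ cells, against 5.42 and 5.17 in WT Foxp3- cells. The interaction was -2.80 ± 0.18 (log2, SE, adjusted p = 0.000212). The Foxp3+ levels nearly coincided and the KO Foxp3- level was the higher of the Foxp3- ones. Nrp1 gave -1.85 ± 0.19 (log2, SE, adjusted p = 0.00159), with 9.29 and 9.43 in KO Foxp3- cells and 7.39 and 7.49 in WT Foxp3- cells. Nt5e gave -1.80 ± 0.17 (log2, SE, adjusted p = 0.00122), with 10.03 and 10.07 in KO Foxp3- cells and 8.24 and 8.03 in WT Foxp3- cells. Il2rb (log2 -1.32 ± 0.16, SE, adjusted p = 0.00368) and Ebi3 (log2 -1.23 ± 0.18, SE, adjusted p = 0.00744) completed the 5 whose interaction was called in every alternative. Klrg1 (log2 -1.48 ± 0.23, SE, adjusted p = 0.0107) lost its call without WT Foxp3- replicate 1, at adjusted p = 0.0546. Itgae (log2 -1.68 ± 0.33, SE, adjusted p = 0.0262) lost it without any 1 WT array and without either KO Foxp3- array, with values from -2.10 to -1.25. Capg (log2 -0.71 ± 0.16, SE, adjusted p = 0.0475) and Gpr83 (log2 0.68 ± 0.16, SE, adjusted p = 0.0486) lost it in 11 and 14 alternatives, with adjusted p up to 0.167 and 0.162. The interaction was not called for Foxp3 (log2 -0.32 ± 0.29, SE, adjusted p = 0.59), Il2ra (log2 -0.30 ± 0.28, SE, adjusted p = 0.598), Ctla4 (log2 -0.07 ± 0.20, SE, adjusted p = 0.887) or Ikzf2 (log2 1.01 ± 0.32, SE, adjusted p = 0.121), which does not show that these differences were alike.

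**Figure D5:**
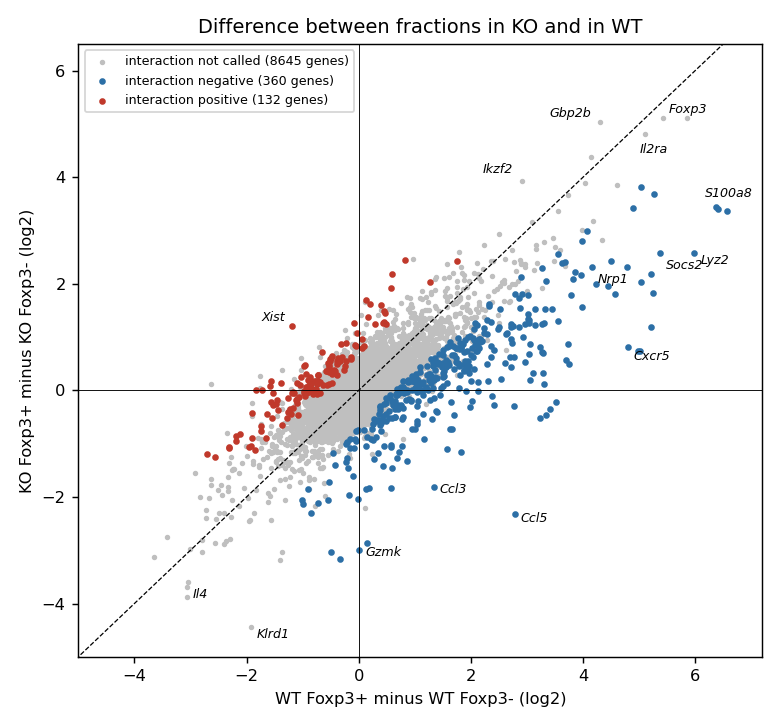
KO Foxp3+ minus KO Foxp3- (log2, vertical) against WT Foxp3+ minus WT Foxp3- (log2, horizontal), 1 point per gene, with the dashed line where both are equal. Blue points are the 360 genes with a negative and red points the 132 with a positive interaction; Ccl5 is lower in KO Foxp3+ and higher in WT Foxp3+ cells, and Foxp3 and Il2ra lie near the line.

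In all, 41 genes were called in opposite directions, and those named here were chosen after their values were seen. Of the 41, Ccl5 had the largest interaction. It differed by -2.31 in KO and by 2.78 in WT, an interaction of -5.10 ± 0.52 (log2, SE, adjusted p = 0.00165). On the KO Foxp3- arrays it stood at 11.36 and 11.32 and on the WT Foxp3- arrays at 6.73 and 6.66. Ccl3 (log2 -3.15 ± 0.23, SE, adjusted p = 0.00028) and Ccl4 (log2 -2.42 ± 0.21, SE, adjusted p = 0.000722) did likewise, each lower in KO Foxp3+ and higher in WT Foxp3+ cells. Ifng differed by -1.45 in KO and by 0.60 in WT (log2 -2.05 ± 0.18, SE, adjusted p = 0.000878). Cxcr3 differed by -0.73 in KO and by 1.66 in WT (log2 -2.39 ± 0.27, SE, adjusted p = 0.00279). For these 5 genes the KO Foxp3- arrays were the brightest of all 8. Ifitm2, an interferon-induced membrane protein, differed by -0.45 in KO and by 3.34 in WT (log2 -3.80 ± 0.17, SE, adjusted p = 6.18e-05), Ier3 by -1.15 and 1.83 (log2 -2.98 ± 0.20, SE, adjusted p = 0.000217) and Golm1 by -1.10 and 1.58 (log2 -2.68 ± 0.15, SE, adjusted p = 0.000134). The KO calls of Ifitm2 and Cxcr3 were lost without KO Foxp3+ replicate 2 and without either KO Foxp3- array, while their interactions were called in every alternative.

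Some differences were called in KO alone, with a called interaction; the 4 largest were named after their values were seen. Gzmk read 4.35 and 4.33 in KO Foxp3+ cells and 7.30 and 7.40 in KO Foxp3- cells, and lay between 4.27 and 4.35 on the WT arrays, where it was not detected (log2 -3.00 ± 0.14, SE, adjusted p = 8.84e-05). Sostdc1, a BMP and Wnt antagonist, read 4.85 and 4.39 in KO Foxp3+ cells, against 7.36 and 7.60 in KO Foxp3- cells, while it read 4.56 and 4.43 in WT Foxp3+ cells, against 4.28 and 4.42 in WT Foxp3- cells (log2 -3.01 ± 0.23, SE, adjusted p = 0.00044). Lrrc75b (log2 -2.85 ± 0.19, SE, adjusted p = 0.000219) and Dapl1 (log2 -2.55 ± 0.23, SE, adjusted p = 0.000997) had the same form. In each of the 4, the KO Foxp3- arrays alone stood high.

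Markers of myeloid cells differed less between the fractions in KO than in WT. All 5 myeloid markers had a negative interaction, with a median KO difference of 2.57 against 5.98 in WT. Their summed intensity was 1884 and 1485 in KO Foxp3+ cells, against 12520 and 13440 in WT Foxp3+ cells. Lyz2 gave -3.40 ± 0.26 (log2, SE, adjusted p = 0.000419), and Fcer1g, on the innate list, -3.74 ± 0.28 (log2, SE, adjusted p = 0.000394). Cxcr5 and Ccr6 showed a different form: Cxcr5 read 8.90 and 8.61 in KO Foxp3+ cells, against 7.96 and 7.91 in KO Foxp3- cells, while it read 9.37 and 9.66 in WT Foxp3+ cells, against 4.59 and 4.84 in WT Foxp3- cells (log2 -3.98 ± 0.22, SE, adjusted p = 0.000134). Ccr6 read 11.35 and 10.26 in KO Foxp3+ cells, against 8.63 and 8.63 in KO Foxp3- cells, while it read 10.40 and 9.96 in WT Foxp3+ cells, against 5.02 and 4.90 in WT Foxp3- cells (log2 -3.03 ± 0.44, SE, adjusted p = 0.00771). This interaction missed the threshold with the authors' processed values (adjusted p = 0.0532). For both genes the wider gap between the genotypes lay in the Foxp3- arrays. The interaction of Id2 (log2 -0.31 ± 0.24, SE, adjusted p = 0.518), Il4 (log2 -0.64 ± 0.22, SE, adjusted p = 0.149) and Klrd1 (log2 -2.53 ± 0.86, SE, adjusted p = 0.139) was not called.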

How the data were processed

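RNA of 8 sorted samples was biotin-labelled after amplification and hybridized to an Illumina bead array, per the labels' protocols. The authors deposited an intensity per probe and array, not normalized between arrays, with a detection p-value beside it, the chance that a negative control bead is as bright. A second deposited table gives log2 values, already processed, of 14942 probes. The submitters' processing notes name GenomeStudio 2011.1, with settings not given in the sources used here. No column of per-sample values was left unused.

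Intensities were background-corrected with the negative control mean and spread inferred from the detection p-values (offset 16), taken to log2 and quantile normalized over all 8 arrays with limma 3.58.1 in R 4.3.3. This raises the contrast of dim probes. The filter on low values asked for detection (p under 0.05) on 2 or more arrays and kept 13526 of 25697 probes. All 8 arrays entered 1 fit of the 4 group means (lmFit, eBayes; 4 residual and 4.00 prior degrees of freedom, prior SD 0.135), with p-values adjusted over all probes by Benjamini-Hochberg. An exact permutation of 2 against 2 arrays cannot give a p below 0.333 and was not used. The fit was checked on simulated data with the same spread in every group. That check does not cover the wider spread between the KO Foxp3+ arrays.

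Gene names came from the platform annotation, which lists 14017 probes with 1 symbol each and none with several; 12702 kept probes were named and 824 were not. No symbol changed on updating through Entrez identifiers, and 7 probes were unmatched. A gene is given by its probe with the highest mean over the 8 arrays. Named are Foxp3 and Tcf12, up to 4 genes per list with the largest difference, and the 10 highest and 10 lowest called genes. The other regulatory T cell genes, the families, the genes opposite in WT or called in KO alone, Ifng, Cxcr3, Xist, the CD3 chains and Cd4, and Tgfbr2, Il7r, Tnfrsf1a, Csf3r, Fcer1g, Gata3, Zbtb7b, Batf, Cxcr4, Ccr7, Klf2, Klra1, Klra7, Klra10, Gbp11 and Cd163l1 were chosen after their values were seen. The samples compared and the gene lists were chosen with earlier results of these data known. Alternatives covered background, scaling, filters, the arrays fitted, weights, the variance prior, the replicate block and single arrays left out.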

Additional observations from a re-analysis of the deposited data

Results flagged for a closer look

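Among the genes named, 44 differed between KO and WT in the size or direction of the Foxp3+ minus Foxp3- difference, by the interaction in limma at an adjusted p under 0.05 (log2, KO difference minus WT difference, n = 2 arrays per group). All but 5 were negative, but some of these genes were named because of their interaction, so the choice bears on this share. Over all 9137 genes the interaction was called negative for 360 (3.94%) and positive for 132 (1.44%). Chemokine, chemokine receptor and cytokine genes gave -5.10 for Ccl5, -3.98 for Cxcr5, -3.15 for Ccl3, -3.03 for Ccr6, -2.42 for Ccl4, -2.39 for Cxcr3 and -2.05 for Ifng. Myeloid and macrophage genes gave -3.40 for Lyz2, -3.00 for S100a9, -2.93 for S100a8, -2.78 for Csf3r, -1.41 for Cd14, -1.08 for C1qc and -1.58 for Vcam1, and the shared Fc receptor chain Fcer1g gave -3.74. Alpha globin Hba-a1 gave -2.75. MHC class II genes gave -2.47 for H2-Ab1, -2.22 for H2-Aa and -2.07 for H2-Eb1.

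Regulatory T cell genes gave -2.80 for Socs2, -1.85 for Nrp1, -1.80 for Nt5e, -1.68 for Itgae, -1.48 for Klrg1, -1.32 for Il2rb, -1.23 for Ebi3, -0.71 for Capg and 0.68 for Gpr83. Genes whose KO Foxp3- arrays alone stood high gave -3.01 for Sostdc1, -3.00 for Gzmk, -2.85 for Lrrc75b and -2.55 for Dapl1. Ifitm2 gave -3.80, Ier3 -2.98 and Golm1 -2.68. Eomes gave -1.64, Cd83 -1.23, Traf1 -1.03, Gbp3 -0.99 and Batf -0.91. Positive values were 0.77 for Isg15, 0.89 for Egr1, 1.09 for Rrm2 and 2.39 for Xist. Of the 44, 27 were called in every alternative and 17 lost the call in at least 1, namely H2-Ab1, H2-Aa, H2-Eb1, Itgae, Eomes, Vcam1, Klrg1, Cd14, C1qc, Gbp3, Batf, Capg, Gpr83, Isg15, Egr1, Rrm2 and Ccr6; none changed sign.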

How the results depend on the processing

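The direction of all 3261 called probes was the same in every alternative that measured them, and no called gene among those named reversed. Only alternatives that changed the background correction or the normalization could turn a direction. The others kept the difference of group means or left out an array of groups that did not overlap, so their direction was fixed in advance. Of 127 named genes 104 were called, 84 of them in every alternative and 20 not in at least 1. Probes called between the KO fractions numbered 1959 in the fit of the 4 KO arrays and 2149 with these normalized alone, which leaves fewer residual degrees of freedom, and 1607 to 3178 with 1 KO array left out; of the 1607, 1554 were among the 3261. With only 2-fold changes counted there were 793 probes, but 236 without background correction and 236 with the authors' processed values, and 761 to 918 with 1 array left out. Background correction widens the differences of dim probes: without it Foxp3 differed by 2.82, Slc40a1 by 3.03, Il2ra by 3.17 and Klrd1 by -3.08 (log2). The interaction called 1093 probes with a variance trend, 1067 without background correction, and 281 to 1098 with 1 array left out. The cause of these changes in count was not tested. Probes detected in 1 fraction alone were 288 or 404 under stricter definitions, by construction fewer than 710. Median scaling set the median of all probes at -0.12, and on the kept probes alone, chosen after seeing the data, at -0.02, with 51.3% of calls higher.

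Of the named genes that were not called, 11 were called in at least 1 alternative, among them Cd40 in 7, Il7r in 6, Tcf4 in 4 and Egr2 in 3 of 17. Among those not called, signs turned in 9 when an array was left out. Leaving out KO Foxp3+ replicate 1 or 2 gave log2 differences of -0.289 to 1.76 for Rag1, -1.237 to 2.634 for Arpp21, -0.149 to 0.605 for Cd8b1, -2.371 to 2.6 for Cd163l1, -0.39 to 0.041 for Icos, -0.39 to 0.26 for Cd4, -0.488 to 0.061 for Fcer1g and -0.197 to 0.017 for Klf2. Cd163l1 passed the threshold in both of these fits, in opposite directions, Cd4 passed it as lower without replicate 1, and Rag1, Arpp21 and Cd8b1 passed it as higher without replicate 2. Blnk lay between -0.273 and 0.105 over the fits without 1 array, and at 0.054 under median scaling on the kept probes.

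The difference between the replicates of a group correlated across probes at -0.03 to 0.10 between groups. This cannot decide whether samples with the same replicate number were paired, because each group gives a single difference. With the replicate block the counts were 3061 probes, 798 at 2-fold or more and 607 for the interaction.

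With 2 arrays a group, differences of probes near the lowest detected signal rest on the background correction, and a missed threshold does not show that levels were alike. Genes without a named probe were not analysed here.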

Other observations

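Xist, the transcript that silences an X chromosome, read 6.73 and 6.67 in KO Foxp3+ cells, against 5.45 and 5.54 in KO Foxp3- cells, a difference of 1.20 (log2; adjusted p = 0.00177 in limma), and a second probe was called in the same direction. In WT it ran the other way, -1.18. The Y-linked gene Eif2s3y, picked outside the naming rules above, lay between 9.22 and 9.99 on all 8 arrays. How Xist and Eif2s3y relate to the sex of the mice was not tested.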
